A study of Mus musculus with 44 samples.

Results

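Interferon-stimulated genes, the transcripts that cells raise when interferons bind their receptors, were followed across mouse livers after a vitamin E-enriched diet and an acute treadmill run. The list held 49 genes, chosen by name as known interferon targets at a time when earlier results of these data were known. Each gene was read from the probe set that the array annotation assigned to its symbol alone, taking the one with the higher mean where there were several (Ifi35 and Lgals3bp). Such a probe set was found for 45 of the 49 genes: Ifi44 had none, and Oas1a, Dtx3l and Gbp2 were measured only by probe sets shared with Oas1g, Parp9 and Gbp2b. A further 2 genes, Oas3 and Mx1, stayed under the expression filter (mean linear value above 4 in at least 1 group), so 43 genes were tested among 10921 genes and 18522 probe sets. Of the 43 genes 41 were above the filter in all 4 groups. Gbp3 was not above it in exercised vitamin E mice, and Ifit2 was above it in exercised control mice alone (mean linear value 4.45, and 3.69 without mouse 6), so that mouse brought Ifit2 into the test.

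The livers came from 44 male C57BL/6N mice aged 11 to 12 weeks, 1 Affymetrix array per mouse. There were 12 exercised mice on the vitamin E diet, 12 exercised mice on the control diet, 10 sedentary mice on the vitamin E diet and 10 sedentary mice on the control diet. The vitamin E diet contained 2000 IU/kg vitamin E (α-tocopheryl acetate) and also 100 mg/kg vitamin C, and the control diet 149 IU/kg vitamin E with 0 mg/kg vitamin C, so the diets differed in both vitamins. Both were based on a purified diet and were fed for 4 weeks. Exercised mice ran for 60 min at 13 m/min on a slope of 14° and were killed directly afterwards, while sedentary mice stayed in their cages near the treadmill without food for the last 60 min. No genetic alteration is given for any group. The comparisons below share groups of mice and are not independent of each other. The genes also varied together across the mice, so the counts of genes below are not counts of independent observations.

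Type I and type III interferons signal through the kinases JAK1 and TYK2 to transcription factor complexes that contain STAT2 and IRF9 and bind the interferon-stimulated response element (ISRE) in target promoters. Type II interferon acts mainly on a different promoter element, the gamma-activated site (GAS). The targets include sensors of foreign RNA and DNA, enzymes and binding proteins that block viral replication, GTPases that attack the vacuoles of intracellular microbes, the immunoproteasome and peptide transporter of antigen presentation, and chemokines that draw lymphocytes. In the liver both hepatocytes and Kupffer cells, the resident macrophages, express such genes at rest and raise them during viral infection.

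The promoters of the listed genes were searched for letters of these response elements. The genes were chosen as known interferon targets, so a high share of such letters follows in part from how the list was made. In the RefSeq windows of 300 bases around gene starts (GRCm38.p6, 250 bases before and 50 after each start), 39 of the 49 genes had an entry. Both strands were searched for an ISRE-like pattern, GAAA followed by any 2 bases (NN) and a further GAAA, and for a GAS-like pattern, TTCNNNGAA, which reads the same on both strands and can share its last GAA with the first GAAA of the ISRE-like pattern. The ISRE-like pattern occurred in 19 of the 39 genes (48.7%), against 3.99% of all 27025 genes with a window and 3.44% of all 32851 windows. By role it was found in 6 of 6 GTPases, 4 of 5 sensors and 6 of 12 antiviral effectors, and in 0 of 5 other type I targets and 0 of 3 antigen processing genes. The GAS-like pattern was found in 12 of the 39 genes (30.8%), against 9.55% of all genes with a window. The windows of 5 genes are shown, those on which the results below turn, written 5′ to 3′ on the strand of the gene with the matches of either pattern in capitals. They belong to Trim21 (chr7:102565433-102565732, minus strand), Adar (chr3:89730468-89730767, plus strand), Ifit1 (chr19:34640639-34640938, plus strand), Isg15 (chr4:156200769-156201068, minus strand) and Igtp (chr11:58199306-58199605, plus strand).
Trim21: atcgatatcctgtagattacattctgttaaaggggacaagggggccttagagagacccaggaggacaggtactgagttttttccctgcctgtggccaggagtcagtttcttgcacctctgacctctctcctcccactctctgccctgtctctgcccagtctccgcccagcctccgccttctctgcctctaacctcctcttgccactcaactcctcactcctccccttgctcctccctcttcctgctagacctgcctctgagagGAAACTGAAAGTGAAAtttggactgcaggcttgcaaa
Adar: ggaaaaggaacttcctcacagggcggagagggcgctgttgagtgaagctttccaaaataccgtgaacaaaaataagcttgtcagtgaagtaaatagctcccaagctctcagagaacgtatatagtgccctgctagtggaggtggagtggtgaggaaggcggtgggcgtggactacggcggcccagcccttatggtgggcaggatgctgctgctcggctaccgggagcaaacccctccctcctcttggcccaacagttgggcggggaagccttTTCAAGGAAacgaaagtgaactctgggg
Ifit1: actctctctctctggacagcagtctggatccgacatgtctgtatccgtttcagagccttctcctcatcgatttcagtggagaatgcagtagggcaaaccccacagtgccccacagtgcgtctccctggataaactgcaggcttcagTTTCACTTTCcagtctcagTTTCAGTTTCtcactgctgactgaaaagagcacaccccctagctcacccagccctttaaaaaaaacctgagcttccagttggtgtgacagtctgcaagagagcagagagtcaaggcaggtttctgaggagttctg
Isg15: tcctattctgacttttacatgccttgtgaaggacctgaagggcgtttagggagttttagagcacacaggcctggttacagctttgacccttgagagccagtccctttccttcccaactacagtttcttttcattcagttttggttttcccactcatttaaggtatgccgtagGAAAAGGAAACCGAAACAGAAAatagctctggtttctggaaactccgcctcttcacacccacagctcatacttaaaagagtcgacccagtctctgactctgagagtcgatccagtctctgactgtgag
Igtp: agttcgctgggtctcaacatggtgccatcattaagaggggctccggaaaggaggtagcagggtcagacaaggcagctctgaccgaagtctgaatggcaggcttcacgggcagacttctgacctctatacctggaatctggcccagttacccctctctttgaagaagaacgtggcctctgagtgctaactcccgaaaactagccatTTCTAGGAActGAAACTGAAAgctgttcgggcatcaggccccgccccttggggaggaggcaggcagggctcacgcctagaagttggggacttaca
Trim21 carried 2 overlapping ISRE-like matches just downstream of its start, Ifit1 carried 2 and Isg15 3 upstream of theirs, and Igtp carried 1 beside a GAS-like match. None of the 3 Adar windows held an exact match of the ISRE-like pattern, and the one shown held a GAS-like match after the start. Behind that match the window reads gaaagtgaac, which differs from the ISRE-like pattern in its last base only. The search for exact matches did not count it. A match describes the letters in a window only.

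The arrays were alike in scale, with array medians between 1.53 and 1.669 on the log2 scale, and hepatocyte markers had nearly the same summed level in every mouse (83.75 to 85.59 over 8 genes). The summed level of 15 Kupffer cell and macrophage markers ranged from 59.9 to 85.08 in exercised vitamin E mice, 62.8 to 92.72 in exercised control mice, 59.03 to 90.48 in sedentary vitamin E mice and 55.47 to 77.28 in sedentary control mice. In whole liver, more cells of a type and more RNA per cell cannot be told apart. Across all 18522 probe sets, limma called 0 for diet in exercised or sedentary mice, 37 higher and 6 lower for exercise on the vitamin E diet, and 111 higher and 15 lower for exercise on the control diet (adjusted p under 0.05). The animal numbers in the labels begin with 24 or with 27, with 4 to 6 mice of each group in each number series. The labels do not say what the series stand for, so values are also given within each of them.

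The interferon-stimulated genes spanned a wide range of levels. Bst2 (tetherin, which holds budding virions at the cell surface) averaged 9.07 over the 44 mice on the RMA log2 scale, Lgals3bp (a secreted galectin-3 binding protein) 8.63 and Iigp1 (an immunity-related GTPase) 8.46. At the other end, Ifit2 (a protein that binds viral RNA) averaged 1.84, Oas3 (a synthase of the RNase L activator) 1.51 and Mx1 (a dynamin-like GTPase) 1.21, near the bottom of the scale. Probe sets differ in their response, so these levels do not rank the transcripts by amount. The mean of the 43 tested genes per mouse had its lowest, median and highest values at 4.66, 4.82 and 4.99 in exercised vitamin E mice and at 4.64, 4.86 and 5.66 in exercised control mice. In sedentary mice these values were 4.73, 4.94 and 5.46 on vitamin E and 4.72, 4.90 and 5.27 on the control diet. All groups overlapped. The highest mouse and the next of its group were at 5.66 and 5.16 in exercised control mice, 5.46 and 5.10 in sedentary vitamin E mice and 5.27 and 5.08 in sedentary control mice.

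**Figure D1:**
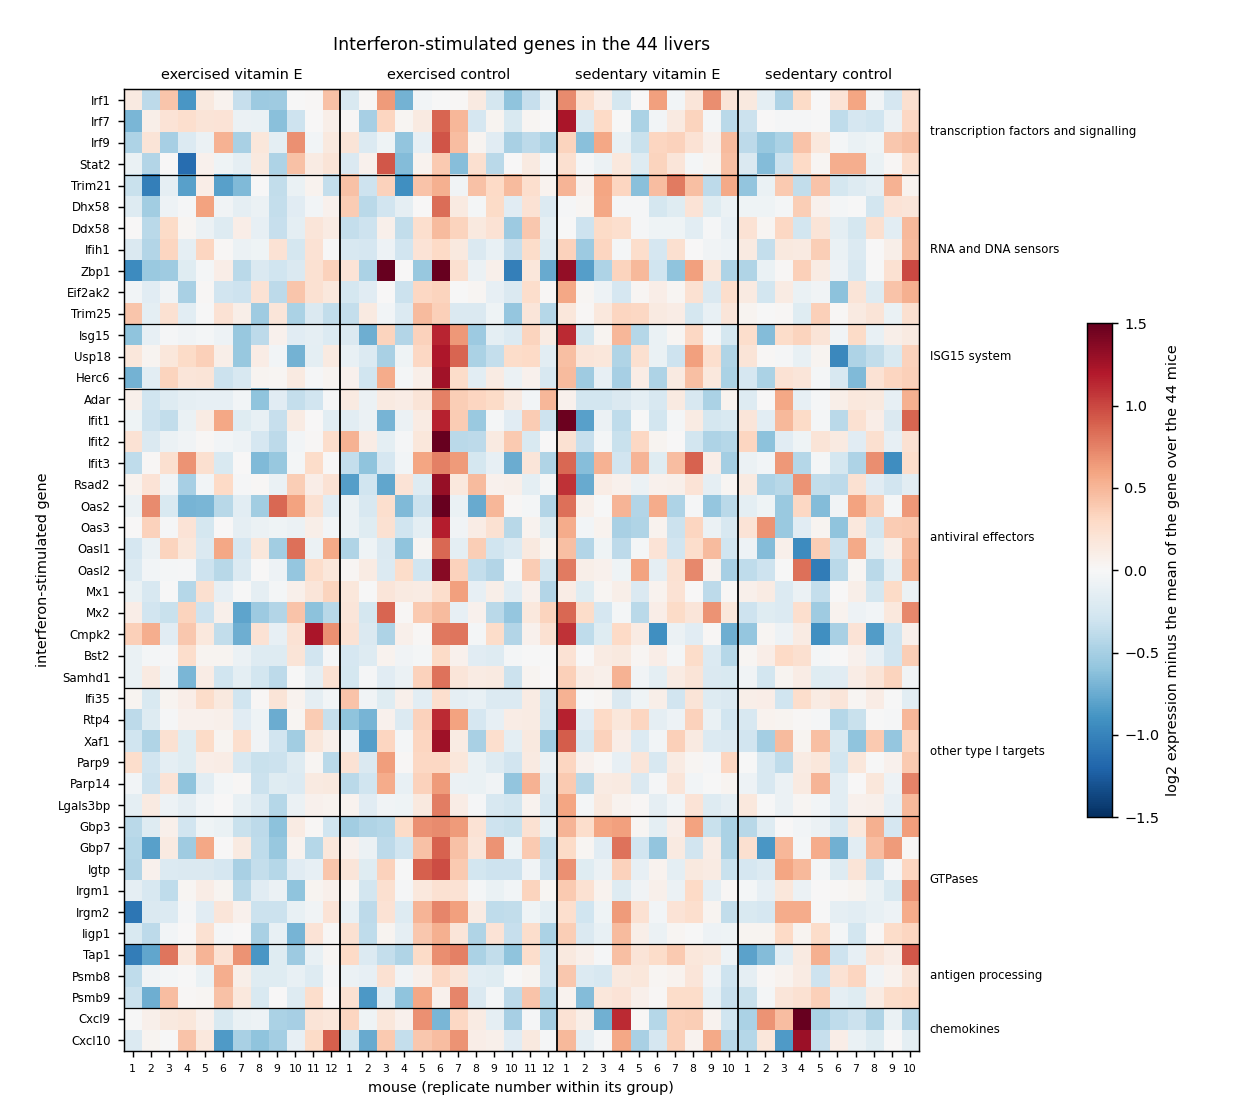
Deviation of 45 interferon-stimulated genes (vertical, ordered by role) from their mean over the 44 mice, for each mouse (horizontal, by group and replicate number), in log2 units from blue (low) to red (high). Exercised control mouse 6, sedentary vitamin E mouse 1 and sedentary control mouse 10 appear as red columns.

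The central diet comparison asked how vitamin E alters the liver transcripts of mice that have run. In exercised mice, 32 of the 43 genes averaged lower on vitamin E than on the control diet and 11 higher, with a median log2 difference (the log2 fold change between group means) of -0.10. Over all probe sets 54.9% were below 0 and the median was -0.015. No gene passed the adjusted threshold (background 0% of probe sets called lower and 0% called higher). At an unadjusted limma p under 0.05, 6 genes were lower and 0 higher (14.0% and 0% of 43, against 3.49% and 2.12% of all probe sets): Adar, Trim21, Irgm1, Igtp, Parp9 and Mx2. The study had already picked out Adar and Trim21 on the present arrays, and their direction here is therefore no independent evidence. Both also count among the 6 genes, so the share of 14.0% is partly drawn from earlier results of the same arrays. Kupffer cell markers were below 0 in 13 of 15 genes (median -0.12) and acute-phase proteins in 18 of 18 (median -0.20) in the same comparison, and the part of either in the values of the interferon-stimulated genes was not tested. The median of the list was -0.15 within series 24 and -0.037 within series 27. Without exercised control mouse 6 it was -0.044, and 3 genes in place of 6 had an unadjusted p under 0.05. The number was also 3 without exercised control mouse 5, and without exercised control mouse 2 it was 8, with a median of -0.16.

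Adar encodes the enzyme that edits adenosine to inosine in double-stranded RNA and so keeps self RNA from the sensors of the pathway. Its lowest, median and highest levels were 2.64, 3.09 and 3.32 in exercised vitamin E mice, against 3.16, 3.41 and 4.00 in exercised control mice. All 12 vitamin E mice lay below the control mean, although the groups overlapped between 3.16 and 3.32. The means were 3.06 ± 0.18 on vitamin E and 3.48 ± 0.23 on the control diet (SD, n = 12 each), a log2 difference of -0.42 (SE 0.091, 95% interval -0.61 to -0.24, or 0.746-fold). The unadjusted limma p was 3.12e-05, the smallest of all 18522 probe sets, and the adjusted p 0.401. Adar had negative differences within both number series, -0.34 among mice of series 24 and -0.51 among mice of series 27. Without exercised control mouse 6, which had the highest Adar level, the difference was -0.38.

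Trim21, a cytosolic antibody receptor and ubiquitin ligase, showed the larger difference with the larger spread. Its lowest, median and highest levels were 2.47, 3.15 and 3.58 in exercised vitamin E mice and 2.57, 3.81 and 4.02 in exercised control mice. All 12 vitamin E mice lay below the control mean of 3.65, while 4 of the 12 control mice, down to mouse 4 at 2.57, lay within the vitamin E range. The log2 difference was -0.54 (SE 0.163, 95% interval -0.87 to -0.21, unadjusted p = 0.00208, adjusted p = 0.748 from limma, lower in 12 of 12 mice). It was -0.59 within series 24 and -0.48 within series 27.

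All 6 tested GTPases were below 0, with a median of -0.24. Igtp and Irgm1 belong to the immunity-related GTPases, which in mice guard against vacuolar pathogens, and the Gbp genes encode guanylate-binding proteins that open such vacuoles. Igtp had its lowest, median and highest levels at 5.45, 5.72 and 6.35 in exercised vitamin E mice and at 5.62, 5.90 and 6.91 in exercised control mice, and the groups overlapped widely. Its log2 difference was -0.31 (SE 0.139, unadjusted p = 0.03, adjusted p = 0.88 from limma, lower in 11 of 12 mice). The difference was -0.58 within series 24 and -0.046 within series 27. Without exercised control mouse 6 it was -0.23 (unadjusted p = 0.0827), and without exercised control mouse 5 the p was 0.0789. Irgm1 had levels of 4.53, 5.02 and 5.25 on vitamin E and 4.86, 5.16 and 5.46 on the control diet, a log2 difference of -0.21 (unadjusted p = 0.0233, adjusted p = 0.868) that was -0.16 within series 24 and -0.26 within series 27. Gbp7, Gbp3, Irgm2 and Iigp1 had log2 differences of -0.33, -0.26, -0.22 and -0.13, each with an unadjusted p above 0.05. Near-identical family members could share signal on the Gbp, Irgm, Oas and Ifit probe sets.

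Mx2, the gene of a dynamin-like GTPase, had levels of 2.19, 2.66 and 3.41 in exercised vitamin E mice and 2.40, 3.09 and 3.86 in exercised control mice. The log2 difference was -0.33 (SE 0.153, unadjusted p = 0.0393, adjusted p = 0.88 from limma, lower in 9 of 12 mice), and -0.26 without exercised control mouse 3, where the unadjusted p was 0.0954. It was -0.35 within series 24 and -0.30 within series 27. Parp9, an ADP-ribosyltransferase family protein that works with the ligase Dtx3l, had levels of 6.43, 6.65 and 7.10 on vitamin E and 6.55, 6.92 and 7.47 on the control diet. Its log2 difference was -0.21 (unadjusted p = 0.0328, adjusted p = 0.88), with -0.23 within series 24 and -0.18 within series 27, and -0.16 without exercised control mouse 3. Both genes overlapped over most of their range, and exercised control mouse 3 was the highest mouse of its group for both.

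Among the other roles, all 3 genes of the ISG15 system (Isg15, a ubiquitin-like modifier, Usp18, which removes it, and Herc6, its ligase in the mouse) were below 0, with a median of -0.18 and no p under 0.05. Of the 12 antiviral effectors 7 were below 0 (median -0.058), with Ifit2, which the filter kept for its level in exercised control mice, among the 7. Of the 7 sensors 5 were below 0 (median -0.063) and of the 4 transcription factors 2 (median -0.052). Of the classical targets of type I interferon, some showed differences near 0: Ifit1 -0.063 (95% interval -0.42 to 0.29), Oas2 -0.052 (-0.50 to 0.40) and Bst2 0.0092 (-0.14 to 0.16). Others lay further from 0 or on either side. Isg15 averaged 4.18 on vitamin E and 4.43 on the control diet, and Rsad2 2.80 and 2.76. Oas2 was -0.38 within series 24 and 0.28 within series 27, and Bst2 0.063 and -0.045. The 3 antigen processing genes lay between -0.058 and 0.048, and both chemokines were below 0 (-0.14 and -0.028).

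**Figure D2:**
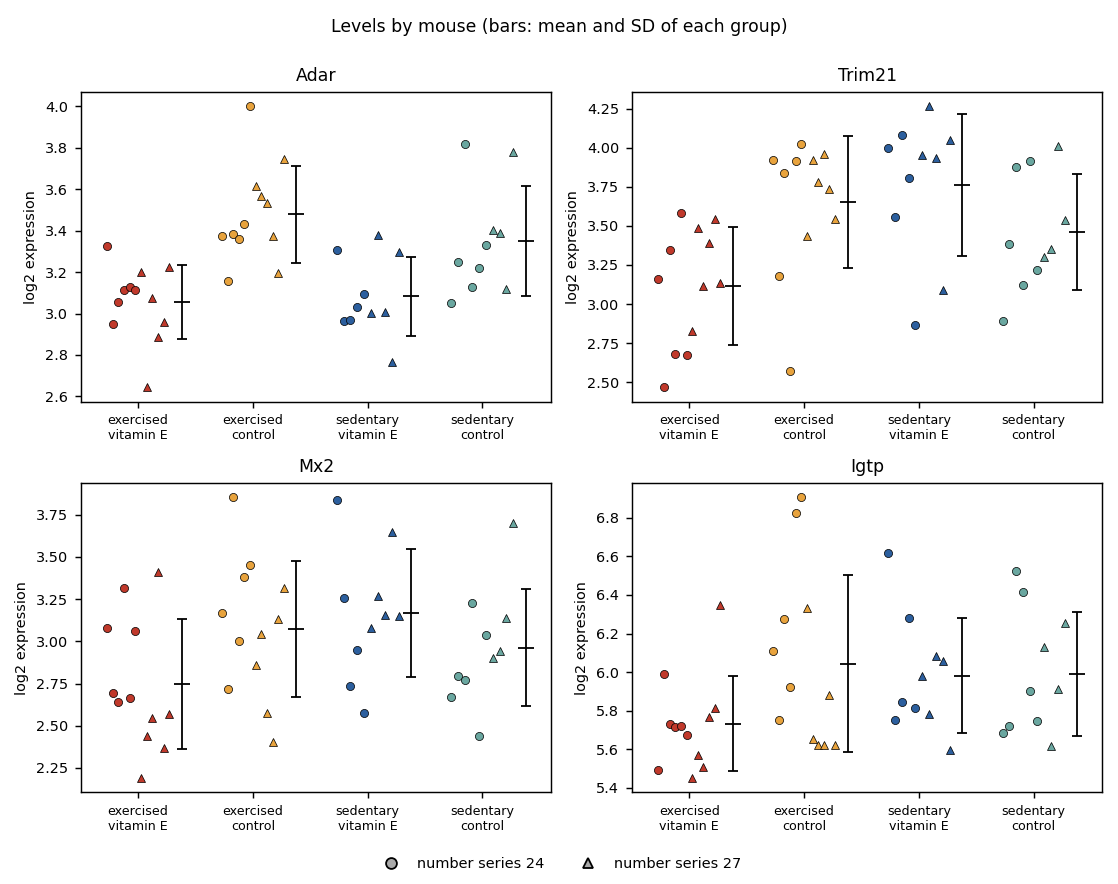
RMA log2 expression of Adar, Trim21, Mx2 and Igtp in each mouse (points, 10 or 12 per group; circles and triangles mark animals of number series 24 and 27), with the mean and SD of each group as bars. All 12 exercised vitamin E mice lie below the exercised control mean for Adar (3.48) and Trim21 (3.65).

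In sedentary mice Adar was the gene with the smallest p of the 43. The study had named Adar as lower on vitamin E in both sedentary and exercised mice on the present arrays. Its direction here is therefore no independent evidence either. The 43 genes had a median log2 difference of 0.03, with 17 below 0 and 26 above (44% of all probe sets were below 0, and their median was 0.019). By limma 0 genes passed the adjusted threshold (background 0% in either direction), and 1 gene was lower and 0 higher at an unadjusted p under 0.05, against 1.97% and 2.8% of all probe sets. The number was 2 without sedentary vitamin E mouse 1, 5, 9 or 10 or sedentary control mouse 4 or 10. That gene was Adar, with lowest, median and highest levels of 2.77, 3.02 and 3.38 in sedentary vitamin E mice and 3.05, 3.29 and 3.82 in sedentary control mice. Its log2 difference was -0.27 (SE 0.0994, unadjusted p = 0.0103, adjusted p = 0.905, lower in 9 of 10 mice), with -0.23 within series 24 and -0.33 within series 27. The groups overlapped from 3.05 to 3.38. All 4 transcription factors were above 0 (median 0.17), and the 6 GTPases were divided, 3 on each side. Trim21 lay on the other side in sedentary mice, with levels of 2.87, 3.94 and 4.27 on vitamin E and 2.89, 3.37 and 4.01 on the control diet, a log2 difference of 0.30 (SE 0.179, 95% interval -0.062 to 0.66, unadjusted p = 0.102). The median of the list had opposite signs in the number series, 0.15 in series 24 and -0.11 in series 27, and was between -0.0036 (without sedentary vitamin E mouse 1) and 0.061 (without sedentary control mouse 10) when 1 mouse was left out. Kupffer cell markers were above 0 in 15 of 15 genes here (median 0.44), and their part in these values was not tested.

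Exercise was compared with the sedentary state within each diet. On the vitamin E diet 38 of the 43 genes averaged lower in exercised mice than in sedentary mice, with a median log2 difference of -0.14 (all probe sets 56% below 0, median -0.019). No gene was called by limma (background 0.0324% called lower and 0.2% called higher), and 6 were lower and 0 higher at an unadjusted p under 0.05 (3.45% and 2.71% of all probe sets). They were Trim21, Mx2, Irf1, Gbp3, Irgm1 and Parp9. All 7 sensors, all 4 transcription factors, all 6 GTPases and all 3 antigen processing genes were below 0. The antiviral effectors had 9 of 12 below 0 and a median of -0.04. The median of the list was -0.16 within series 24 and -0.098 within series 27, and -0.092 without sedentary vitamin E mouse 1. Kupffer cell markers were below 0 in 14 of 15 genes (median -0.22), and their part in these values was not tested.

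Trim21 had its lowest, median and highest levels at 2.47, 3.15 and 3.58 in exercised vitamin E mice and at 2.87, 3.94 and 4.27 in sedentary vitamin E mice. All 12 exercised mice lay below the sedentary mean of 3.76, and 8 of the 10 sedentary mice lay between 3.56 and 4.27. The log2 difference was -0.64 (SE 0.171, 95% interval -0.99 to -0.30, unadjusted p = 0.000525, adjusted p = 0.131 from limma), with -0.68 within series 24 and -0.61 within series 27. Without sedentary vitamin E mouse 5, the lowest of its group, the adjusted p was 0.0317 and the difference -0.74. Irf1, a transcription factor of the interferon gamma response, had levels of 1.53, 2.42 and 2.85 in exercised and 2.14, 2.59 and 3.12 in sedentary mice, a log2 difference of -0.37 (unadjusted p = 0.0186, adjusted p = 0.632) that was -0.25 within series 24 and -0.49 within series 27. Mx2 had levels of 2.19, 2.66 and 3.41 in exercised and 2.57, 3.15 and 3.84 in sedentary mice and differed by -0.42 (unadjusted p = 0.013, adjusted p = 0.558). That difference was -0.16 within series 24 and -0.67 within series 27, whereas that of Gbp3 was -0.56 within series 24 and -0.20 within series 27. Gbp3 had levels of 1.57, 1.95 and 2.31 in exercised and 1.71, 2.37 and 2.80 in sedentary mice, a pooled difference of -0.38 (unadjusted p = 0.0186, adjusted p = 0.632), with 12 of 12 exercised mice below the sedentary mean. Gbp3 was above the filter in sedentary and not in exercised vitamin E mice. Irgm1 differed by -0.20 (unadjusted p = 0.0356, adjusted p = 0.756), with -0.18 within series 24 and -0.22 within series 27. Parp9 also differed by -0.20 (unadjusted p = 0.0486, adjusted p = 0.808), with -0.12 within series 24 and -0.29 within series 27. When 1 mouse was left out, the p of Parp9 was above 0.05 in 23 of 44 fits (up to 0.0964) and that of Irgm1 in 7 (up to 0.0873). The groups overlapped for every one of these genes.

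On the control diet the differences of the list lay on both sides of 0. Of the 43 genes 23 averaged higher and 20 lower in exercised mice, with a median log2 difference of 0.01, and -0.012 after quantile normalization, when 24 were lower. By limma 0 genes passed the adjusted threshold (background 0.599% called higher and 0.081% called lower) and 0 had an unadjusted p under 0.05, against 5.96% and 3.44% of all probe sets. Leaving out 1 mouse gave 0 or 1 such gene. The smallest p was that of Cmpk2, a mitochondrial nucleotide kinase next to Rsad2, with a log2 difference of 0.39 (unadjusted p = 0.0585, adjusted p = 0.549). The number series again lay on opposite sides, with a median of 0.13 in series 24 and -0.12 in series 27, and the pooled median was between -0.062 (without exercised control mouse 6) and 0.058 (without exercised control mouse 2) when 1 mouse was left out. In the same comparison Kupffer cell markers were above 0 in 15 of 15 genes (median 0.33) and acute-phase proteins in 18 of 18 (median 0.22), and their part in the list's values was not tested.

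**Figure D3:**
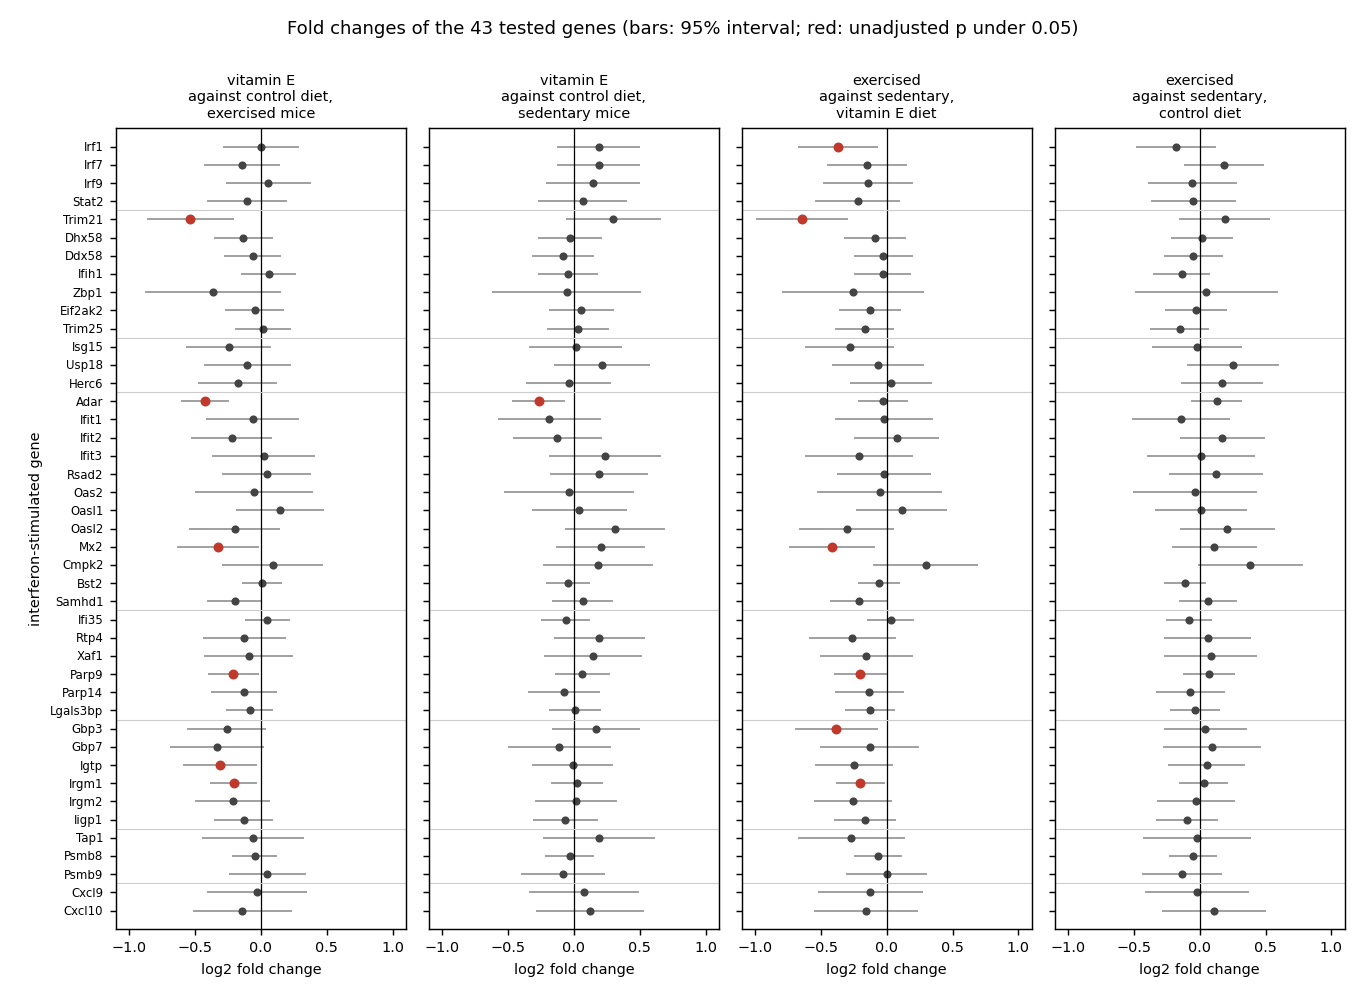
Log2 differences (points) with 95% intervals (bars) of the 43 tested genes, ordered by role, for the diet in exercised and in sedentary mice and for exercise on each diet. Red points, with an unadjusted p under 0.05, number 6, 1, 6 and 0 from left to right, and all of them lie below 0.

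The interaction tested whether the diet difference in exercised mice was unlike that in sedentary mice. It was below 0 for 36 of the 43 genes, with a median of -0.16 (all probe sets 57.5% below 0, median -0.035), and no gene was called (background 0% in either direction). At an unadjusted p under 0.05 limma gave 3 genes below 0 and 0 above, against 3.7% and 1.78% of all probe sets. Trim21 had an interaction of -0.83 (SE 0.242, 95% interval -1.32 to -0.35, unadjusted p = 0.0013, adjusted p = 0.771), which was -0.85 within series 24 and -0.79 within series 27. Mx2 had -0.53 (unadjusted p = 0.0249, adjusted p = 0.9), which was -0.60 within series 24 and -0.39 within series 27, and Oasl2, a ubiquitin-like relative of the oligoadenylate synthetases, -0.51 (unadjusted p = 0.0499). The Oasl2 value was -0.90 within series 24 and -0.083 within series 27, and -0.40 (unadjusted p = 0.0873) without exercised control mouse 6. For Adar it was -0.16 (95% interval -0.43 to 0.12, unadjusted p = 0.253), so that the diet difference of Adar was not shown to depend on the run. The median interaction of the list was -0.33 within series 24 and 0.045 within series 27, so it did not hold within both series. Of the 43 genes 17 were below 0 in both. Without sedentary control mouse 10, 6 genes in place of 3 had an unadjusted p under 0.05, and 5 did without exercised control mouse 2 or 9 or sedentary vitamin E mouse 6. Kupffer cell markers were below 0 in 15 of 15 genes (median -0.57) and acute-phase proteins in 18 of 18 (median -0.23) in the interaction, and their part in it was not tested.

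The mean of the 43 genes was highest in 3 single mice, each of a different group. Exercised control mouse 6 had the highest level of its group in 31 of the 43 genes and lay above the mean of the other 11 mice in 42. It exceeded that mean by more than 1 log2 unit in 12 genes: Zbp1 (a sensor of Z-form nucleic acids) by 2.14, Oas2 (a further synthase of the RNase L activator) by 2.1, Ifit2 by 1.83 and Rsad2 (viperin, which makes a chain-terminating nucleotide) by 1.42 were the foremost. Oas2 read 4.33 in this mouse, while the other 11 reached at most 2.90, and Ifit2, tested only because of this mouse, read 3.69 against at most 2.36. All 3 genes of the ISG15 system were highest in this mouse, with a median excess of 1.22, and the median excess was 0.94 over the 12 antiviral effectors and 0.73 over the 6 GTPases. The chemokines were divided: Cxcl9, a T cell attractant, lay 0.72 below the other mice and Cxcl10 0.45 above.

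Sedentary vitamin E mouse 1 was the highest of its group in 22 genes and above the mean of the other 9 mice in 41. Ifit1 stood at 6.15 in this mouse, while the other 9 reached at most 4.81, and Irf7 (the factor that amplifies type I interferon) stood at 6.97 against at most 6.09. Zbp1, Cmpk2, Isg15, Rsad2 and Rtp4 (a receptor-transporting protein) exceeded the mean of the other mice by 1.44, 1.31, 1.14, 1.13 and 1.11. Sedentary control mouse 10 was the highest in 20 genes and above the mean of the others in 37, with smaller excesses: Tap1 (a subunit of the peptide transporter) by 1.06, Zbp1 by 1.00, Mx2 and Ifit1 by 0.82 each and Irgm1 by 0.73. No exercised vitamin E mouse was the highest of its group in more than 9 genes. These mice were picked out by their values, so the excesses are given without a test.

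**Figure D4:**
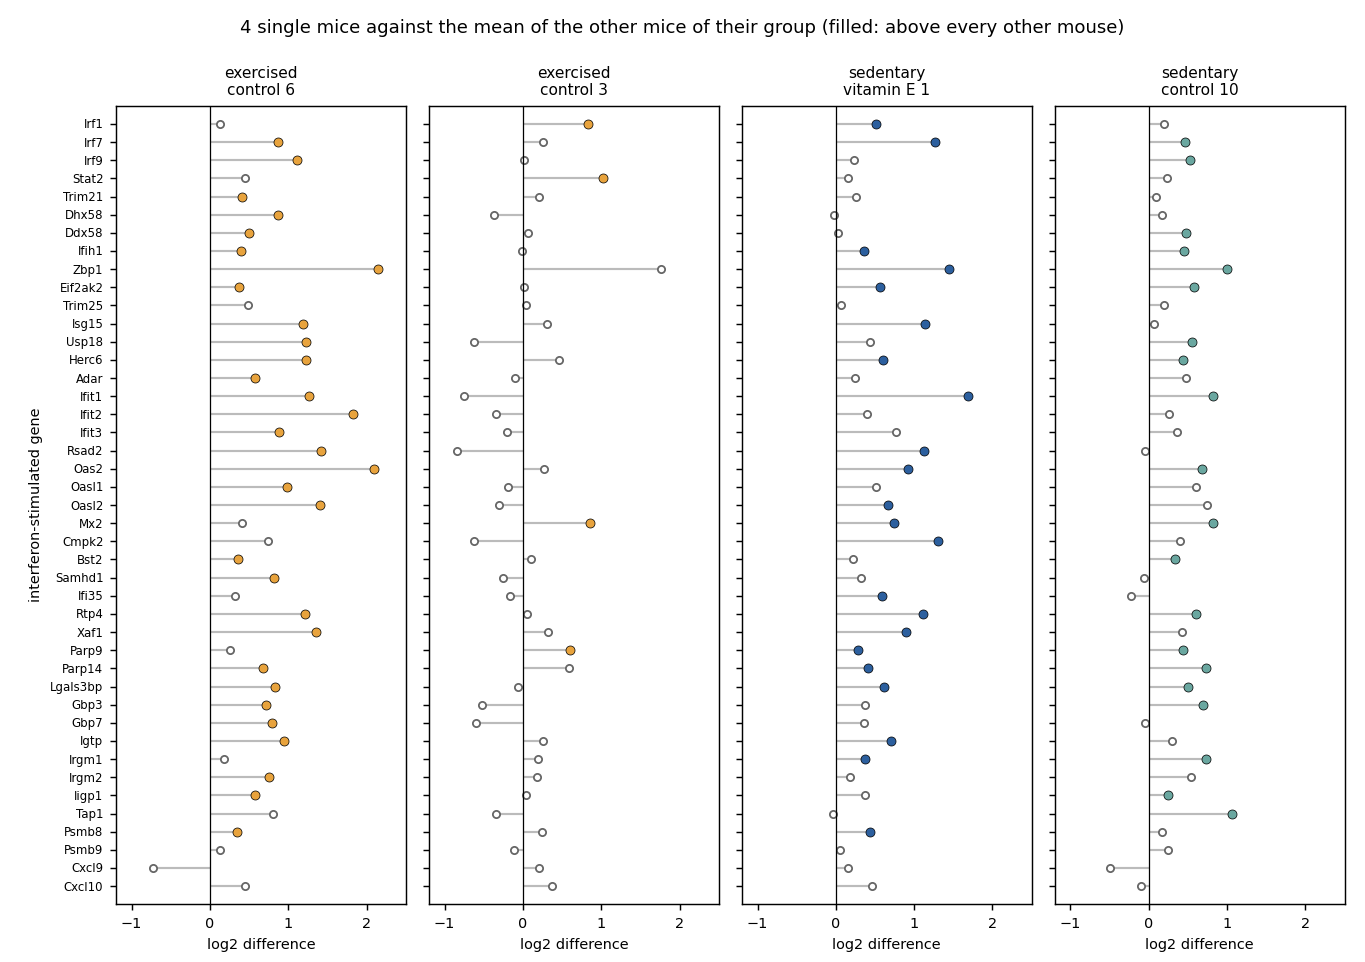
Difference in log2 expression between 4 single mice and the mean of the other mice of their group for each of the 43 genes (filled points lie above every other mouse of the group). Exercised control mouse 6 has filled points for 31 genes, exercised control mouse 3 for 4, sedentary vitamin E mouse 1 for 22 and sedentary control mouse 10 for 20.

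The same mice were the highest of their groups in macrophage markers. The mean of the 15 Kupffer cell and macrophage genes was 6.18 in exercised control mouse 6 (next highest in its group 4.89), 6.03 in sedentary vitamin E mouse 1 (next 5.66) and 5.15 in sedentary control mouse 10 (next 4.41). High macrophage markers also occurred without high interferon-stimulated genes: exercised vitamin E mouse 2 had a marker mean of 5.67 with a list mean of 4.72, and sedentary vitamin E mouse 3 had 5.66 with 4.97. The mean of 18 acute-phase proteins was 10.77 in exercised control mouse 6, 10.42 in sedentary vitamin E mouse 1 and 9.33 in sedentary control mouse 10 (next 9.26). The mean of 10 neutrophil markers, 2 of them above the filter, was 3.06 in exercised control mouse 6 and 2.74 in exercised control mouse 3. It was 2.33 in sedentary vitamin E mouse 1 (next 1.48). Sedentary control mouse 10 had 1.58, below the highest of its group (1.93). The part of macrophages, neutrophils and the acute-phase response in the excess of the 3 mice was not tested.

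**Figure D5:**
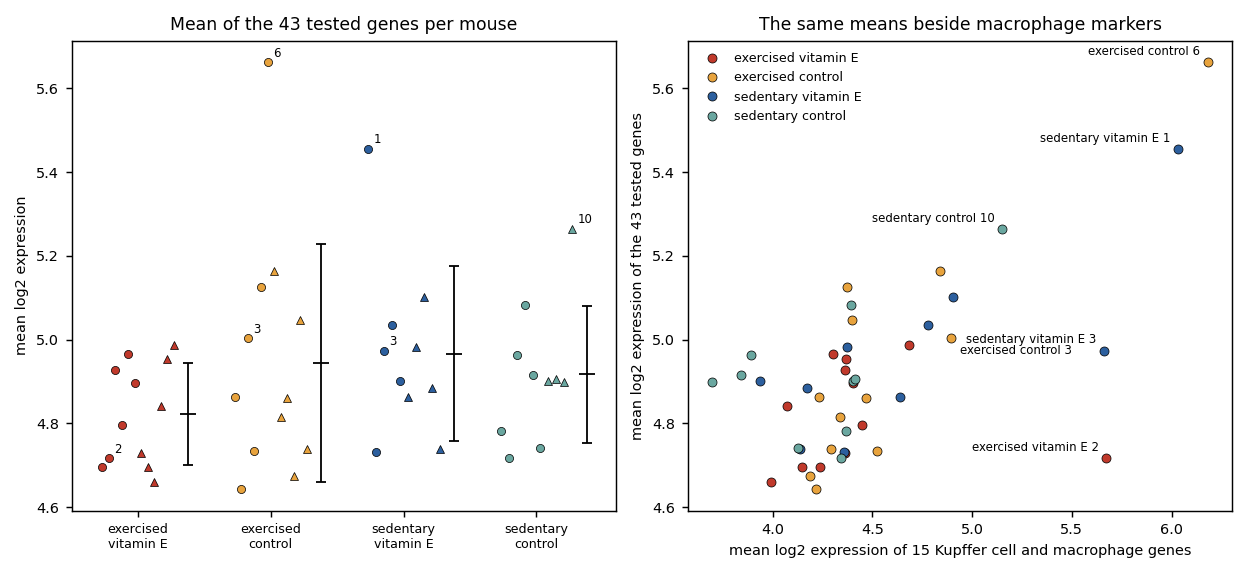
Left, mean log2 expression of the 43 tested genes in each mouse by group, with mean and SD bars (circles, number series 24; triangles, series 27; numbers name single mice). Right, the same means against the mean log2 expression of 15 Kupffer cell and macrophage genes, where the 3 mice with the highest list means (5.66, 5.46 and 5.27) also have high marker means, and exercised vitamin E mouse 2 has a high marker mean (5.67) with a list mean of 4.72.

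Exercised control mouse 3 showed a different composition. It had the highest mean of 18 acute-phase proteins of all mice (10.91, followed by 10.77 in exercised control mouse 6), yet a list mean of 5.00. Zbp1 lay 1.76 above the mean of the other 11 mice, Stat2 (a subunit of the interferon-activated transcription complex) 1.02, Mx2 0.85 and Irf1 0.84. Ifit1, Rsad2 and Usp18 lay 0.76, 0.85 and 0.63 below it. Of the 12 antiviral effectors 3 were above the mean of the other mice, whereas in exercised control mouse 6 all 12 were. Sedentary control mouse 4 differed again, with Cxcl10, an attractant of activated T cells, at 4.49 against at most 3.37 in the other 9 mice of its group and Cxcl9 at 8.85 against at most 7.99.

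The upstream and neighbouring parts of the pathway were measured as well, from lists drawn up by function. Of 19 ligands, receptors and kinases 13 passed the filter, and 0 of them had an unadjusted p under 0.05 in any of the 5 comparisons. The smallest limma p-values were those of the interactions of Ifnk, an interferon of the skin (0.46, p = 0.0955), and Tyk2 (0.35, p = 0.115). Ifnk was above the filter in exercised vitamin E and sedentary control mice alone, the groups that enter the interaction with a plus sign. Without the highest mouse of each group it was above the filter in 0 groups, so the filter favoured a positive value. The ligand genes had low levels, and 5 of the 9 interferon genes measured passed the filter. Their highest group mean was 3.44 (Ifnl2, in sedentary vitamin E mice), within the range of the group means of Adar (3.06 to 3.48). Ifnb1 averaged 0.99 in exercised vitamin E mice, 0.85 in exercised control mice, 0.93 in sedentary vitamin E mice and 1.02 in sedentary control mice. The receptor chain Ifnar1 averaged 6.13 ± 0.17, 6.17 ± 0.24, 6.10 ± 0.14 and 6.15 ± 0.25 in the same order (SD, n = 12, 12, 10 and 10). Of the 11 tested regulators, none was called. The closest was Irf2bp2, a corepressor of IRF2, at 7.95 ± 0.25 in exercised and 7.51 ± 0.23 in sedentary control mice (SD, n = 12 and 10), a log2 difference of 0.44 (unadjusted p = 0.000502, adjusted p = 0.0694 from limma), and 0.33 on the vitamin E diet (adjusted p = 0.455). Socs3, a feedback inhibitor of JAK kinases, differed by 0.86 between exercised and sedentary control mice (adjusted p = 0.364).

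Among 33 further interferon targets 1 was higher and 1 lower at an unadjusted p under 0.05 for the diet in exercised mice (2.12% and 3.49% of all probe sets), with a median of -0.046. Uba7, the enzyme that activates ISG15, averaged 2.44 ± 0.27 in exercised and 2.83 ± 0.26 in sedentary vitamin E mice (SD, n = 12 and 10), a log2 difference of -0.38 (unadjusted p = 0.0107, adjusted p = 0.519 from limma). Ifitm1, a membrane protein that restricts viral entry, had an interaction of 0.44 (adjusted p = 0.85). It was under the filter in sedentary vitamin E mice alone (mean linear value 3.72), a group that enters the interaction with a minus sign. Of the 10 sensing genes tested, Unc93b1, the chaperone of endosomal Toll-like receptors, had an interaction of -0.48 (adjusted p = 0.9), and Tlr3 differed by 0.29 between exercised and sedentary control mice (adjusted p = 0.522). In antigen presentation, Tap2, the partner of Tap1, averaged 1.80 ± 0.22 in sedentary vitamin E and 2.23 ± 0.27 in sedentary control mice (SD, n = 10 mice each), a log2 difference of -0.44 (adjusted p = 0.752 from limma), while Tap1 differed by 0.19 in the same comparison. Tap2 was above the filter in sedentary control mice alone, so it entered the test through the group in which it was high. Psme1, a proteasome activator subunit, differed by 0.10 (adjusted p = 1). Of the acute-phase proteins, Serpina3n, a protease inhibitor, averaged 10.47 ± 0.44 in exercised and 10.12 ± 0.14 in sedentary control mice (SD, n = 12 and 10; adjusted p = 0.252 from limma). Crp differed by -0.19 between exercised vitamin E and exercised control mice (adjusted p = 0.801).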

How the data were processed

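Liver RNA of 44 mice was hybridised to 1 array each. Per the labels, the authors processed the arrays by RMA in Affymetrix Expression Console, whose deposited log2 values were used here as they are. There were 0 sample columns left unused. The number of arrays limits the precision.

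Probe sets with a mean linear value above 4 in at least 1 group were kept, following the study's methods, and limma 3.58.1 (R 4.3.3) was run on all 4 groups at once, giving each group its own coefficient (two-sided moderated tests). P-values were adjusted over 18522 probe sets by the Benjamini-Hochberg method. The 49 genes and all other lists were chosen with earlier results of these data known. Genes were named in the text if they had an unadjusted p under 0.05 in any comparison, were named by the study (Adar, Trim21), had one of the 3 highest or lowest mean levels, or had one of the 5 largest gaps between the highest mouse and the next of its group. Of other lists, called genes or the 2 with the smallest p were named. The remaining names (single mice, examples of a role) were chosen after their values were seen. Symbols came from the array annotation (23521 probe sets with 1 symbol, 1820 with several, 16004 with none).

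A simulation of the diet contrast in exercised mice drew independent normal noise for each of 18522 probe sets and changed 200 of them. In it the fit recovered 41% of changes of 0.5 and 85% of changes of 1 log2 unit. Alternatives were fits of the compared groups alone, no filter or a mean log2 value above 5, quantile normalization, median centring, array weights, eBayes with trend and robust options, a block for the number series or either series by itself, a block for the replicate number, the mean of a gene's probe sets, a rank-sum test with 100000 permutations, the methods' rule (a ratio of medians above 1.2 and an unadjusted p under 0.05) and leaving out each of the 44 mice or exercised control mice 3 and 6. Leaving out the 3 mice with the highest means together was chosen after seeing the data. Same-numbered mice did not deviate together: their correlation exceeded 0.1 in 0 pairs of any comparison. Figures were drawn with Python 3.11.15.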

Additional observations from a re-analysis of the deposited data

Results flagged for a closer look

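In 90 groups of 10 sedentary mice and 1 gene each, the highest or lowest mouse stood apart from the rest by a gap past Dixon's critical value in 12 groups, 10 on the high side and 2 on the low side. Chance gives about 5% of such groups, and groups of 12 mice were not examined in this way. The genes were read from the same mice and varied together, so the 90 groups are not independent. The count of 12 can therefore not be weighed against that share. Of the 12, 6 were sedentary vitamin E mouse 1: Ifit1 at 6.15, Irf7 at 6.97, Rtp4 at 6.68, Xaf1 (an apoptosis-promoting factor) at 5.98, Rsad2 at 3.84 and Lgals3bp at 9.23. Sedentary control mouse 10 stood apart on the high side for Irgm1 at 5.82, Rtp4 at 6.03 and Lgals3bp at 9.12. Sedentary control mouse 4 did so for Cxcl10 at 4.49, and sedentary control mouse 2 stood apart on the low side for Isg15 at 3.73 (next lowest 4.26) and Ifit2 at 1.22 (next lowest 1.67). In the vitamin E mouse and in control mouse 10 the mean of the Kupffer cell and macrophage markers was the highest of the group (6.03 and 5.15), and the part of these cells was not tested.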

How the results depend on the processing

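The count of called genes stayed at 0 in every comparison under all alternatives except the methods' rule and the omission of 1 mouse. The methods' rule does not adjust for the number of probe sets. For the diet it gave 4 genes (Adar, Trim21, Mx2 and Parp9) in exercised mice and 1 (Adar) in sedentary mice. For exercise it gave 3 (Trim21, Mx2 and Gbp3) on the vitamin E diet and 0 on the control diet. In that order, 3.26%, 3.61%, 4.4% and 6.1% of all probe sets met the rule in either direction. Leaving out each mouse gave 0 to 1 called genes for exercise on the vitamin E diet, the 1 being Trim21 without sedentary vitamin E mouse 5, and 0 elsewhere. Adar and Trim21 kept their direction and an unadjusted p under 0.05 for the diet in exercised mice under every alternative that tested them (the stricter filter left both out), between -0.51 and -0.34 and between -0.63 and -0.47. Mx2, Parp9, Igtp and Irgm1 kept their direction but passed 0.05 in part of the settings: without exercised control mice 3 and 6 their p-values were 0.174, 0.162, 0.14 and 0.0688. The number of genes with an unadjusted p under 0.05 for the diet in exercised mice, 6, was 3 without exercised control mouse 5 or mouse 6, 8 without exercised control mouse 2, 3 with array weights or with the stricter filter, 2 in series 27 alone and 2 without exercised control mice 3 and 6, when the median was -0.016. Without exercised control mouse 6, sedentary vitamin E mouse 1 and sedentary control mouse 10 together, a choice made after seeing the data, the median was -0.044 and 3 such genes were left. For exercise on the vitamin E diet, 6 such genes became 2 with the stricter filter or in series 24 alone, for exercise on the control diet 0 became up to 2, and for the interaction 3 became 6 without sedentary control mouse 10 or in series 24 alone, 5 with median centring, 1 without exercised control mice 3 and 6, and 0 with the stricter filter, which tests fewer genes. Quantile normalization moved the share of all probe sets below 0 for the diet in exercised mice to 49.3%, against 54.9% as deposited, with 32 of the 43 genes below 0 in both. With the replicate number as a block the median for the diet in exercised mice was -0.10 and 5 genes had an unadjusted p under 0.05. The number did not pair the mice (median correlation of same-numbered mice 0.048), and the block changed no call at the adjusted threshold. None of the 16 pairs of gene and comparison with an unadjusted p under 0.05 changed its sign, but some list medians did. The sedentary diet median ranged between -0.11 and 0.15, and that of exercise on the control diet between -0.12 and 0.13. The interaction median, -0.16 over all mice, was -0.33 within series 24 and 0.045 within series 27. Changes of 0.5 log2 units were recovered in 41% of cases in the simulation, so smaller differences than that of Trim21 were often not detectable with these arrays.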

Other observations

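Across the 44 mice the 43 genes varied together to different degrees. Over the 903 gene pairs the median Pearson correlation was 0.32, after removal of group means, and 862 pairs were above 0. Without exercised control mouse 6, sedentary vitamin E mouse 1 and sedentary control mouse 10 the median was 0.17, and 701 pairs were above 0. All values come from the same arrays, so probe sets share whatever is common to an array. Lgals3bp, Rtp4, Isg15, Irf7 and Igtp had the highest mean correlation with the other genes of the list (0.47, 0.46, 0.45, 0.45 and 0.44), and Cxcl9, Stat2 and Ifi35 (a leucine zipper protein) the lowest (0.045, 0.12 and 0.16). Trim21 was among the low ones with 0.16.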
